A study of Mus musculus with 7 samples.

Results

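The genes described here are the G protein-coupled receptor genes whose symbol is Gpr followed by a number, a naming series that was given to receptors before their ligands were known. All rows of the deposited table with such a symbol were taken, which gave 5 genes of the 752 listed: Gpr183, Gpr171, Gpr174, Gpr55 and Gpr15. They were measured by RNA sequencing of B cells from the spleens of 4 wild-type mice and of 3 mice with a disrupted Batf gene (Batf KO), all on the C57BL/6J background. The cells were isolated on magnetic columns, and both genotypes received the same 6 h culture with 20 µg/mL LPS (lipopolysaccharide), a bacterial ligand of Toll-like receptors, and 20 ng/mL IL-4 (interleukin-4), so no resting cells are part of the comparison. The labels do not say how the Batf allele was made, nor the age or sex of the mice.

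G protein-coupled receptors cross the cell membrane repeatedly and, when a ligand binds outside, activate a heterotrimeric G protein inside, which changes cyclic AMP, calcium or other signals in the cell. In lymphocytes many of them sense lipids or chemokines and steer where the cell goes in the spleen and lymph nodes. GPR183, also called EBI2, binds oxysterols and guides activated B cells towards the outer edge of the follicle. GPR174 responds to lysophosphatidylserine, GPR55 to lysophosphatidylinositol and GPR171 to a neuropeptide, and GPR15 is a homing receptor of T cells for the large intestine. BATF, an AP-1 transcription factor, pairs with JUN proteins on DNA, often beside IRF4 or IRF8, and is needed for antibody class switching. The genotypes were compared to find transcripts whose early level in activated B cells depends on Batf.

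A gene enters the deposited table only if it passed the authors' test between the same libraries at a false discovery rate (FDR) of 0.05. From its FDR and p-value columns, 19734 genes had been tested, so 3.81% were called. Those higher in Batf KO made up 1.95% and those lower 1.86%. That each of the 5 Gpr genes differs between the genotypes is therefore a property of the table, and the tests below are descriptions of listed genes, not independent evidence. GENCODE M21 names 75 genes with a Gpr number, and 6.67% of them are listed. Genes outside the table have no value here, and the authors' 19734 tested genes are another denominator than the 75 annotated ones. Among the listed genes 51.1% are higher and 48.9% are lower in Batf KO. Of the Gpr genes 1 is higher (Gpr183) and 4 are lower.

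The sequences just before the RefSeq gene starts of the member with the deepest fall and of the sole member that was higher are shown for orientation, since BATF acts through DNA sites. They are 250 bases each, 5′ to 3′ on the strand of the gene, from RefSeq on GRCm38.p6. The Gpr55 stretch is chr1:85961056-85961305, minus strand, with 52.0% G and C, and the Gpr183 stretch is chr14:121965194-121965443, minus strand, with 32.0% G and C. The median over all promoters in the RefSeq table is 52.4%.
Gpr55: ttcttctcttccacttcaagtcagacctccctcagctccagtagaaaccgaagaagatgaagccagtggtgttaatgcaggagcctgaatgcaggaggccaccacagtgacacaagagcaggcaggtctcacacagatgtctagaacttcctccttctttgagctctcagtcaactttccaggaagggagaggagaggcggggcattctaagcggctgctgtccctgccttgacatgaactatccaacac
Gpr183: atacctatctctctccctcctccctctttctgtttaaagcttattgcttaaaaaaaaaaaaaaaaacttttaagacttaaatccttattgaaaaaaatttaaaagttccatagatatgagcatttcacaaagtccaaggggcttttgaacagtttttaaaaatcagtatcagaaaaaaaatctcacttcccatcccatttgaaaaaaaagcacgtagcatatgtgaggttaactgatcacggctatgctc

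Both strands were searched for the AP-1 letters TGANTCA, for the stricter TGACTCA contained in them, for 2 composites of BATF with IRF factors, and for an NF-kappaB motif. The composites were GAAA directly before TGANTCA, and TTTC before TGANTCA with 4 bases between them, so both contain TGANTCA. The NF-kappaB motif was GGGA and TTTCC with 1 base between them. Neither stretch holds any of them, nor does the window of Gpr174, which precedes a RefSeq start inside the GENCODE gene span, in an intron of the transcript drawn here. Of all 32851 promoters, 6.75% hold TGANTCA, 4.46% TGACTCA, 0.100% and 0.0974% the 2 composites and 0.356% the NF-kappaB motif. The window of Gpr15 holds 1 match to TGANTCA, shown here in capitals at chr16:58719055-58719081, minus strand, with 10 bases on each side. The RefSeq start of Gpr15 lies inside the GENCODE gene, so this window overlaps the gene and the match lies at the GENCODE start, not before it.
Gpr15: atgaaaatatTGATTCAatttttttta

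These matches describe letters in a short window and show no binding. A window was matched for 4 of the 5 genes, the exception being Gpr171.

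All 5 genes carry their coding sequence in a single exon, a layout common among receptors of this class. The coding sequences have 357 codons in Gpr183, 319 in Gpr171, 335 in Gpr174, 327 in Gpr55 and 360 in Gpr15, without the stop codon. The genes lie on different chromosomes.

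**Figure D1:**
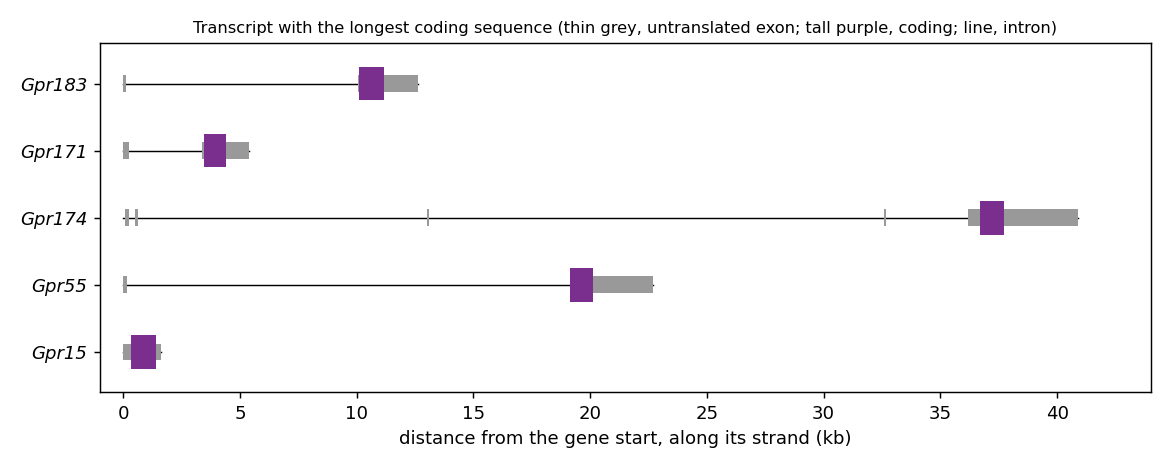
Exon layout of the 5 Gpr genes in GENCODE M21 by distance from the gene start in kb, for the transcript with the longest coding sequence. Grey boxes are untranslated exon parts, tall purple boxes the coding part and lines introns. In each gene 1 exon holds the whole coding part. Gpr15 has 1 exon, Gpr183, Gpr171 and Gpr55 have 2 and Gpr174 has 5.

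The wild-type libraries had effective sizes of 24891094 to 44728937 reads and the Batf KO libraries 23675459 to 30844920, as recovered from the table. The targeted gene Batf was lower in every Batf KO library: its mean fell from 319 ± 11.2 counts per 1000000 reads (CPM; SD over the 4 wild-type libraries) to 66.5 ± 3.49 CPM (SD over the 3 Batf KO libraries). Of 12 B cell markers 4 are listed (Ms4a1, Blk and Fcmr higher, Ighm lower in Batf KO), and their summed level was 2210 to 2555 CPM in wild type and 2165 to 2269 CPM in Batf KO. This sum hides opposite movements: the mean of Ighm was 1634 ± 178 CPM (SD) in wild type and 1202 ± 76.6 CPM in Batf KO. That of Ms4a1 was 580 ± 39.6 and 879 ± 40.9 CPM, and Blk and Fcmr were 1.44-fold and 1.54-fold higher in Batf KO. Of markers of other spleen cells, 2 of 17 T and NK cell genes (Cd8b1, Tbx21), 1 of 18 myeloid genes (Zbtb46) and 1 of 11 erythroid and platelet genes (Pf4) are listed. Among the authors' tested genes 3.81% are listed. The summed levels of these markers were 2.81 to 12.6 CPM (T and NK), 47.4 to 65.6 CPM (myeloid) and 0.281 to 0.627 CPM (erythroid and platelet) in wild type. In Batf KO they were 5.70 to 7.88 CPM, 73.6 to 89.6 CPM and 0.760 to 1.04 CPM. The T and NK sum joins genes that moved in opposite directions: the mean of Cd8b1 was 2.05 ± 0.609 CPM (SD) in wild type and 6.46 ± 1.12 CPM in Batf KO, and that of Tbx21 was 4.35 ± 3.95 and 0.368 ± 0.158 CPM, with no overlap for either. The myeloid and the erythroid and platelet gene were both higher in Batf KO. Markers outside the table have no value, and the part of other cells in the values below was not tested. In bulk RNA a smaller share of cells with a transcript and less of it per cell cannot be told apart.

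Gpr183 was the sole member that was higher without Batf, and the difference was small. It lies on chromosome 14 at 121952551 to 121965195, minus strand (GRCm38, as for all gene positions here). Its level in the wild-type libraries 1 to 4 was 186, 158, 171 and 185 CPM, from 4608 to 7631 reads, and in the Batf KO libraries 1 to 3 it was 224, 229 and 213 CPM, from 5051 to 6914 reads. Each Batf KO library lay above each wild-type library, by at least 27.2 CPM. The group means were 175 ± 13.5 CPM (SD, n = 4) and 222 ± 7.82 CPM (SD, n = 3), so Gpr183 was 1.27-fold higher in Batf KO. In edgeR's quasi-likelihood test the log2 fold change was 0.34 (SE 0.07, adjusted p = 0.00223 over the 667 listed genes with a mean of at least 1 CPM). Adjusted over all 19734 genes the authors tested, with unlisted genes at p = 1, the p was 0.0660 and the call was lost, while the FDR in the authors' deposited table is 0.0126. Its rank by size of change is 705 of 752 in the authors' deposited table. The listed genes past the filter that were higher had a median fold of 1.51.

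Gpr171 and Gpr174 were lower in Batf KO by nearly the same factor. Gpr171 (chromosome 3, 59096448 to 59101821, minus strand) was at 44.2, 45.4, 44.1 and 46.0 CPM in the wild-type libraries 1 to 4 and at 28.8, 33.7 and 29.9 CPM in the Batf KO libraries 1 to 3. The wild-type values lay close together and all Batf KO values lay below them. The means were 44.9 ± 0.950 CPM (SD, n = 4) and 30.8 ± 2.57 CPM (SD, n = 3), a 1.46-fold decrease. The log2 fold change was -0.55 (SE 0.08, edgeR adjusted p = 0.000393), and over 19734 genes the adjusted p was 0.0116.

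Gpr174 (chromosome X, 107255878 to 107296769, plus strand) was at 33.4, 30.6, 33.7 and 36.3 CPM in the wild-type libraries 1 to 4 and at 21.1, 21.6 and 24.9 CPM in the Batf KO libraries 1 to 3. All Batf KO values lay below all wild-type values. The means were 33.5 ± 2.33 CPM (SD, n = 4) and 22.5 ± 2.03 CPM (SD, n = 3), a 1.49-fold decrease, with a log2 fold change of -0.57 (SE 0.10, edgeR adjusted p = 0.000843, and 0.0249 over 19734 genes). Gpr174 is X-linked, and the Y chromosome gene Usp9y had 72 reads in Batf KO library 1 and 0 in the other 6. Without that library the log2 fold change of Gpr174 was -0.53 (edgeR adjusted p = 0.00449). The listed genes past the filter that were lower had a median fold of 1.56.

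The ratio of Gpr171 to Gpr174 was 1.35 ± 0.0950 (SD, n = 4) in wild type and 1.37 ± 0.178 (SD, n = 3) in Batf KO. The ratio of Gpr183 to Gpr171, which does not depend on the library scaling, was 3.47 to 4.21 in wild type and 6.79 to 7.79 in Batf KO. The ratio of Gpr183 to Gpr174 was 5.06 to 5.57 in wild type and 8.58 to 10.6 in Batf KO. Gpr183 thus made up 66.9% to 70.1% of the summed CPM of the 5 genes in wild type and 79.5% to 81.8% in Batf KO. The summed level itself was 236 to 270 CPM in wild type and 268 to 284 CPM in Batf KO, and these ranges overlap.

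Gpr55 was the member with the deepest fall, from a low level to a few reads. The wild-type libraries 1 to 4 held 57, 44, 68 and 47 reads (1.43, 1.46, 1.52 and 1.89 CPM), and the Batf KO libraries 1 to 3 held 0, 3 and 2. The 0 reads of Batf KO library 1 allow up to 0.0973 CPM (3 reads). All wild-type libraries lay above all Batf KO libraries, by at least 1.32 CPM. In total 216 reads stood against 5, a 25.2-fold difference in reads per library size with an exact 95% counting interval of 10.6 to 78.4. Intervals and limits of this kind cover counting error only. Without Batf KO library 1 the ratio was 15.7, and without library 2 it was 42.2. The means were 1.57 ± 0.212 CPM (SD, n = 4) and 0.0653 ± 0.0581 CPM (SD, n = 3). With a mean below 1 CPM over all libraries, Gpr55 did not pass the filter. Without the filter its log2 fold change was -4.58 (SE 0.50, edgeR adjusted p = 9.97e-05), and the adjusted p over 19734 genes was 0.00262. In the authors' deposited table it ranks 13 of 752 by size of change and 31 by FDR (1.49e-19).

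Gpr55 spans chromosome 1, 85938318 to 85961007, on the minus strand. Its exons share 71 bases (1.91% of their length) with 4933407L21Rik on the other strand, which is not listed. No source used here gives the strand setting of the counting. Listed genes further away went both ways. Itm2c at 29.6 kb and A630001G21Rik at 160 kb were lower (log2 fold changes -0.88 and -0.38). A530040E14Rik at 824 kb and A530032D15Rik at 828 kb were higher (0.56 and 0.85). Of these, A630001G21Rik alone was called over 19734 genes (edgeR adjusted p = 0.0136).

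Gpr15 was scarce in both groups. The wild-type libraries 1 to 4 held 10, 13, 17 and 8 reads (0.251, 0.432, 0.380 and 0.321 CPM), and the Batf KO libraries 1 to 3 held 0, 3 and 1. The groups did not overlap, but the smallest gap was 0.140 CPM. The total of 48 reads against 4 gave a 7.0-fold difference in reads per library size (exact 95% counting interval 2.56 to 26.7). Without Batf KO library 1 it was 4.35, and without library 2 it was 18.7. Without the filter the log2 fold change was -2.71 (SE 0.65, edgeR adjusted p = 0.00395). Over 19734 genes the adjusted p was 0.104, so Gpr15 was not called there.

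Gpr15 (chromosome 16, 58717433 to 58719070, minus strand) overlaps another gene that was lower. Of its exon length, 204 bases (12.5%) are shared with the end of Cpox, a haem synthesis gene on the other strand. Its mean was 90.1 ± 7.92 CPM (SD) over the wild-type libraries and 55.2 ± 6.86 CPM (SD) over the Batf KO libraries (edgeR adjusted p = 0.000439). Without the strand setting, reads from the shared bases cannot be told apart. Cpox itself was 1.63-fold lower, against 6.76-fold for the mean CPM of Gpr15. The next gene, Cldnd1, lies 8.84 kb away and was 1.84-fold lower (edgeR adjusted p = 0.000280).

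**Figure D2:**
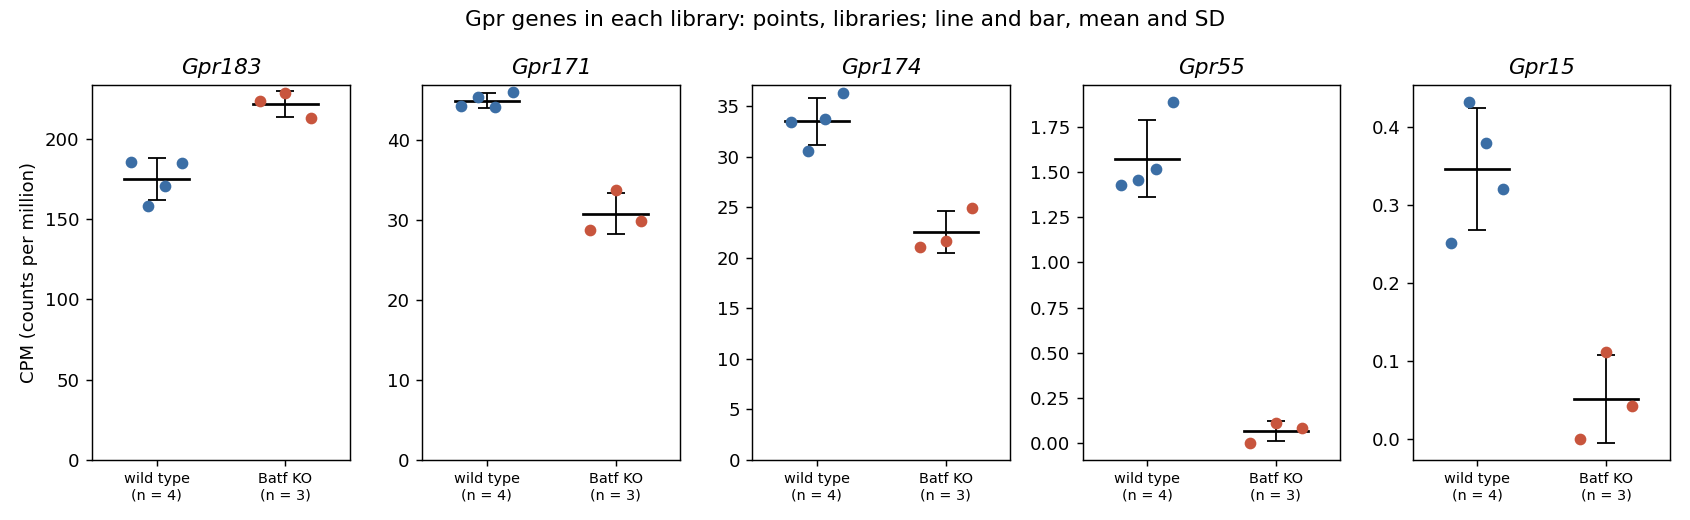
CPM of the 5 Gpr genes in each of the 4 wild-type (blue) and 3 Batf KO (red) libraries. Points are libraries, horizontal lines the means and bars the SD, and each panel has its own linear axis. Gpr183 lies higher in all Batf KO libraries, from 213 to 229 CPM, and the other genes lie lower.

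The groups did not overlap for any of the 5 genes, as for 94.7% of the listed genes. The exact two-sided permutation p of the CPM values was 0.0286 for each, the smallest that the 35 ways to assign the genotype labels can give. Of the listed genes, 46.5% were higher without overlap and 48.1% lower. Of the Gpr genes, 3 passed the filter of 1 CPM and all 3 passed the edgeR test, as did 100% of the fitted genes, 50.8% as higher and 49.2% as lower. Adjusted over 19734 genes, Gpr171 and Gpr174 of these 3 remained, both lower, against 42.9% of the fitted genes (20.1% higher and 22.8% lower). Without the filter, Gpr55 was also called over 19734 genes and Gpr15 was not, against 41.2% of all listed genes (22.7% lower). At least 2-fold changes in the authors' deposited table were found for 28.9% of the genes, 15.0% downward, and Gpr55 and Gpr15 are among the latter. The median log2 fold change of the 5 genes in the fit without the filter was -0.57, and that of all listed genes was 0.31. Because the table was selected for change, such a median mainly shows which direction holds more genes. Over the listed lower genes it was -0.73 and over the higher ones 0.64.

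**Figure D3:**
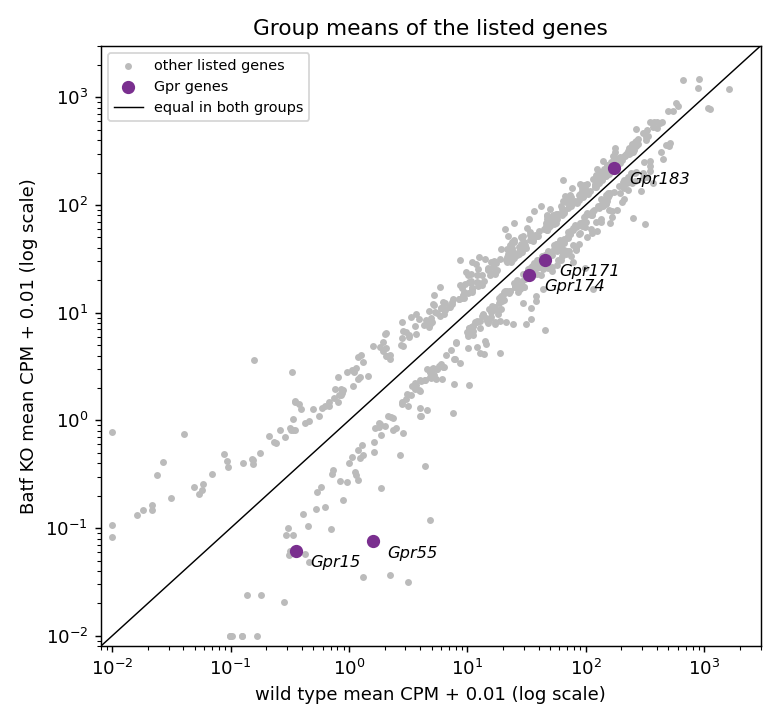
Mean CPM in Batf KO against wild type for the 752 listed genes, each with 0.01 CPM added, on log scales. Grey points are other listed genes, purple points the Gpr genes, and the line marks equal levels. The empty band along the line reflects the selection of the table. Gpr183, Gpr171 and Gpr174 lie beside it and Gpr55 and Gpr15 far below it.

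Per kilobase of exon, the order of the genes in wild type was Gpr183 at 60.6 ± 4.67 RPKM (CPM divided by exon length in kilobases; SD, n = 4), Gpr171 at 20.2 ± 0.427, Gpr174 at 6.21 ± 0.431, Gpr55 at 0.423 ± 0.0570 and Gpr15 at 0.211 ± 0.0475. Each step exceeded the spread between the libraries. In Batf KO the order of the first 3 was the same, at 76.9 ± 2.71, 13.8 ± 1.15 and 4.17 ± 0.376 RPKM (SD, n = 3). Gpr55 and Gpr15, at 0.0175 ± 0.0156 and 0.0312 ± 0.0343 RPKM, did not differ beyond their spread. These levels use GENCODE M21 exon lengths, and no source used here names the annotation the authors counted on.

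The spread between libraries of 1 genotype differed among the members. The variance of the counts was set against that expected from counting alone, as a chi-square per degree of freedom, where 1 means counting error only. In wild type Gpr171 was at 0.642, Gpr55 at 0.796 and Gpr15 at 0.629, so no spread beyond counting error was seen in the 4 libraries. At the few reads of Gpr55 and Gpr15 a moderate spread between libraries would not show in this measure. Gpr174 was at 4.46 and Gpr183 at 33.1, and the median over the 667 fitted genes was 11.3. This measure grows with read depth, so it does not rank the genes by their spread. The coefficient of variation in wild type was 2.11% for Gpr171, 6.94% for Gpr174, 7.70% for Gpr183, 13.5% for Gpr55 and 22.5% for Gpr15, against a median of 10.5% over the fitted genes. In Batf KO the chi-square values were 6.00 for Gpr171, 4.70 for Gpr174 and 6.85 for Gpr183, against a median of 5.93. Gpr55 was at 1.60 and Gpr15 at 1.83 there, from 5 and 4 reads.

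Of the near relatives of these receptors in the same clusters, only P2ry10 and P2ry12 are listed. Both were lower, as were 48.9% of all listed genes, and neither was called over 19734 genes. P2ry10, which encodes another lysophosphatidylserine receptor, lies 151 kb from Gpr174 on chromosome X. Its mean was 97.0 ± 12 CPM (SD) over the wild-type libraries and 68.9 ± 3.87 CPM (SD) over the Batf KO libraries (log2 fold change -0.49, SE 0.10, edgeR adjusted p = 0.00223, and 0.0659 over 19734 genes). P2ry12, an ADP receptor gene, lies 114 kb from Gpr171 on chromosome 3 and had 47 reads in wild type and 6 in Batf KO. It did not pass the filter, and without it the edgeR adjusted p over 19734 genes was 0.119. P2ry14 and P2ry13 between them, P2ry10b beside Gpr174, and Gpr18, which lies 36.8 kb from Gpr183, are not listed. Gpr171 lies inside Med12l and Gpr183 inside Ubac2, both on the opposite strand without shared exon bases, and neither host gene is listed.

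Of 123 other annotated G protein-coupled receptor genes in 3 lists (chemoattractant, small-molecule, and adhesion and other receptors), 12 are listed (9.76%). Among the authors' tested genes, another denominator than the annotated ones, 3.81% are listed. Of the 12, 4 are higher and 8 lower in Batf KO, against 51.1% and 48.9% of all listed genes. All 11 that passed the filter passed the edgeR test, as did 100% of the fitted genes, and 3 higher and 3 lower ones passed over 19734 genes, against 20.1% and 22.8% of the fitted genes. Their median log2 fold change without the filter was -0.77. The chemokine receptor gene Ccr7, which guides lymphocytes to T cell zones, was higher in Batf KO, as Gpr183 was. Its mean was 915 ± 28.1 CPM over the wild-type and 1477 ± 69.5 CPM over the Batf KO libraries (SD). Ccrl2 was higher as well. Adora2a, an adenosine receptor gene, rose from 49.7 ± 6.43 to 91.4 ± 7.11 CPM, and the adhesion receptor gene Adgrg1 from 12 ± 1.2 to 22.4 ± 1.14 CPM. The lower ones include Ptger4, a prostaglandin E2 receptor gene (78.9 ± 5.06 to 43.0 ± 3.93 CPM), and Hrh2, a histamine receptor gene (7.67 ± 1.30 to 2.18 ± 0.370 CPM). Ccr6 (log2 fold change -1.08), Ackr3 (-0.72) and the fatty acid receptor gene Ffar2 (-0.82) were also lower, and Adgrl2 fell furthest of the 11 (-3.03). Over 19734 genes Ccrl2, Ccr6, Ackr3, Ffar2 and P2ry10 were not called.

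**Figure D4:**
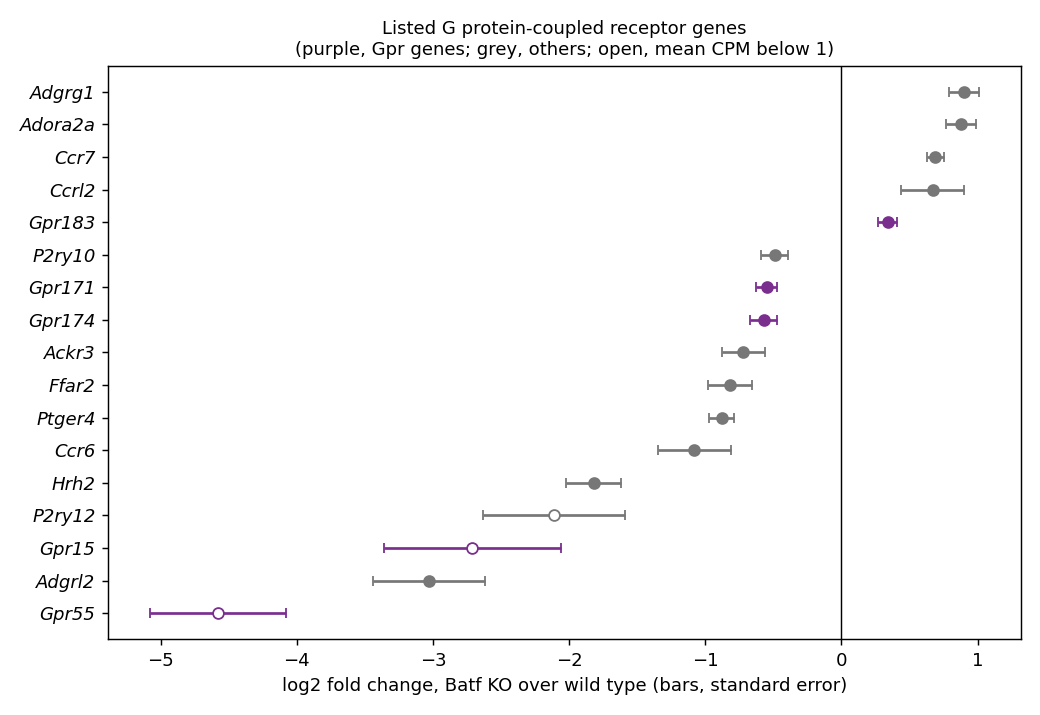
Log2 fold change (Batf KO over wild type) of 17 listed receptor genes from the edgeR fit without the filter, with standard errors as bars. Purple marks the 5 Gpr genes, grey the others, and open symbols a mean below 1 CPM. Gpr183 is the smallest of the 5 increases at 0.34, and Gpr55 the largest of the 12 decreases at -4.58.

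Downstream of the receptors, 1 of 28 heterotrimeric G protein subunit genes is listed, Gng11, with 42 reads in wild type and 71 in Batf KO. Of 33 genes of G protein regulators, receptor kinases and arrestins, 1 is listed, the receptor kinase gene Grk3 (12.2 ± 1.92 CPM in wild type, n = 4, and 17.7 ± 2.73 CPM in Batf KO, n = 3), and its groups overlapped. Of 42 effector genes 7 are listed (16.7%), 2 higher and 5 lower, against 51.1% and 48.9% of all listed genes. All 7 effector genes passed the edgeR test, as 100% of the fitted genes did. Pik3cg, the phosphoinositide 3-kinase subunit gene activated by G protein beta-gamma subunits, fell from 10.4 ± 2.17 to 2.12 ± 0.257 CPM. The phospholipase gene Plcb2 fell from 20.3 ± 1.10 to 13.3 ± 0.818 CPM, and the cyclic AMP response gene Crem from 46.4 ± 4.82 to 29.0 ± 4.55 CPM. Adcy7, an adenylate cyclase gene, and Creb1 were lower (log2 fold changes -0.41 and -0.31), and the cyclic AMP phosphodiesterase genes Pde4b and Pde4a were higher (0.58 and 0.64). Over 19734 genes 3 of the 7 were called, namely Pik3cg, Plcb2 and Crem, all lower, against 42.9% of the fitted genes (22.8% lower). None of the 4 genes for enzymes that make or degrade the oxysterol ligands of GPR183 (Ch25h, Cyp7b1, Hsd3b7, Cyp27a1) is listed. With so few genes this is close to the share of all tested genes, and unlisted genes have no value here.

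The listed genes with the most similar profile over the 7 libraries were sought by the root mean square difference of mean-centred log2(CPM + 0.5). For Gpr183 these were the kinase gene Stk10 (0.034) and Clint1 (0.057), against a median of 0.395 over the fitted genes. Il21r, an interleukin receptor gene (0.048), and Usp22, a deubiquitinase gene (0.049), came closest to Gpr171, with a median of 0.455. Gpr174 was closest to Fam3a (0.046) and Lrrcc1 (0.047), with a median of 0.470. All listed genes were selected on the genotype contrast, so a small value can come from a similar fold change. The medians include genes that moved the other way. For Gpr55 the nearest were Rab43 (0.144) and Nfil3 (0.155), and for Gpr15 Otulinl (0.078) and Csf2rb (0.085). At the low CPM of Gpr55 and Gpr15 the 0.5 CPM added to each value shrinks the differences, so these 2 profiles are flatter than the reads. Within the 5 genes the closest pair was Gpr171 and Gpr15 (0.094, with Gpr15 flattened as said), followed by Gpr171 and Gpr174 (0.118), and the furthest was Gpr55 and Gpr183 (1.107).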

How the data were processed

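RNA of 7 libraries was analysed, 4 wild type and 3 Batf KO, grouped by the genotype label. Per the submitters' processing notes, the build was mm10 and the tools included HTSeq 0.5.3p7, TopHat2 2.0.6 and edgeR 3.03. Their roles are not stated. Per the file headers, the deposited table gives for each gene the read count per library and the CPM the authors computed from it. It also gives the authors' log2 fold change, log2 mean CPM, likelihood ratio (a score), p-value and FDR, per the file headers. The members and gene lists were chosen with earlier results of these data known.

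Effective library sizes were recovered as count divided by CPM. Genes whose mean CPM reached 1 were tested on their counts in edgeR 4.0.16 (R 4.3.3; quasi-likelihood, two-sided) as a single fit of the whole table, with Benjamini-Hochberg adjustment. SE is the size of the log2 fold change divided by the square root of F. The step was tested on simulated counts in which most genes were unchanged and all had the same dispersion. The listed genes were selected for change and vary in spread, so that test does not carry over to them. Exact permutation tests enumerated the 35 label assignments in Python 3.11.15, and counting intervals are exact binomial (Clopper-Pearson, scipy 1.17.1). Nothing says whether the samples were cultured separately, so p-values measure the spread between these samples. DESeq2 1.42.0 and limma 3.58.1 were alternatives. Positions and exon lengths come from GENCODE M21 (GRCm38, also called mm10), which held 742 of the 752 identifiers. All Gpr genes, the listed genes of the fixed lists, Batf and the 2 most similar profiles of each member were named by rule. Usp9y and the neighbouring genes were named after their values were seen. The design text states 2 replicates for all samples, which the sources used here do not explain, and each library was treated as 1 mouse. A few items are not reported here.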

Additional observations from a re-analysis of the deposited data

Results flagged for a closer look

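Among the 4 wild-type libraries, 1 was singled out where its gap to the nearest other took more of the range than Dixon's 95% critical value. Of 35 genes checked, where chance gives about 1.75, 1 was found, and it is not a Gpr gene. Creb1 was at 172 CPM in wild-type library 4 and at 154 to 156 CPM in the remaining 3. Batf KO, with 3 libraries, was too small a group for this check.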

How the results depend on the processing

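No Gpr gene changed direction under any alternative run. Adjusted over the 19734 genes the authors tested, 0 Gpr genes were called higher and 2 lower, and of all listed genes 134 were called higher and 152 lower, against 1, 2, 339 and 328 before. This adjustment is stricter by construction. Without the filter, 4 Gpr genes were called lower, because Gpr55 and Gpr15 then entered the fit. Under the other alternatives the counts stayed within 1.5 times. Gpr183 (adjusted p = 0.0660) and, without the filter, Gpr15 (0.104) lost their call over 19734 genes alone, and Gpr183 ran from 0.30 to 0.38 on the log2 scale with adjusted p of 6.28e-05 to 0.0660 in 17 alternatives. Gpr171 ran from -0.62 to -0.50, Gpr174 from -0.65 to -0.51, Gpr55 from -5.26 to -1.27 and Gpr15 from -3.97 to -0.36, the last 2 smallest with limma and 1 CPM added to each value. The alternatives without the filter for Gpr55 and Gpr15 were chosen after seeing the data. In wild type, libraries 1 and 2 and libraries 3 and 4 were alike in pairs, and leaving out either pair kept every Gpr call. Nearly all listed genes kept theirs too. Without libraries 1 and 2, 338 were called higher and 323 lower, and without libraries 3 and 4, 308 and 315, against 339 and 328 before. Since the table was selected on this contrast, keeping a call says little about the Gpr genes. No paired analysis was possible because wild-type and Batf KO titles carry no shared mouse numbers. The numbers of all Batf KO libraries lie between those of wild-type libraries 1 and 2, and those of wild-type libraries 3 and 4 are higher. Depth limits Gpr55 and Gpr15, with 5 and 4 reads in Batf KO.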
